A study of Mus musculus with 8 samples.

Results

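Genes for chemokine and cytokine ligands, with the caspase that activates some of them, were read out in sorted sensory neurons from the dorsal root ganglia (DRG) of mice. The 10 genes were given by name, out of the 22609 gene symbols in each library. They are the chemokines Ccl2, Cx3cl1, Cxcl12 and Cxcl14, the interleukins Il18, Il33 and Il34, the growth factors Tgfb1 and Tgfb2, and Casp1. There were 4 libraries from female and 4 from male C57BL/6J mice, all young adult and naïve, with females taken in the estrous phase. In both sexes the lectin tracer WGA-488 had been injected into both hindpaw and thigh. Labelled neurons of lumbar DRG were then sorted, and RNA was amplified by the oligo-dT SMART-seq2 protocol. The tracer entered from both sites, so afferents of skin and of muscle cannot be told apart.

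Chemokines are small secreted proteins that guide immune cells along a gradient, and their names follow the spacing of the first cysteines of the protein. CX3CL1 is unusual in being made as a membrane-bound form on neurons that proteases release. Interleukin 18 is made as an inactive precursor that caspase 1 cuts, while interleukin 33 acts as an alarm signal when it leaves a damaged cell. Interleukin 34 is a second ligand of the macrophage growth factor receptor CSF1R, and the TGF-beta proteins are secreted in a latent complex that has to be opened. In sensory ganglia such signals are known for talk between neurons, satellite glia and macrophages after nerve injury.

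Libraries held 4800071 to 7329597 gene reads, so that 3 reads corresponded to 0.409 to 0.625 counts per 1000000 gene reads (CPM). Reads carried no molecular identifiers, and such floors cover counting error only. Xist and Ddx3y reads matched the labelled sex in 8 of 8 libraries. Over the whole profile female replicate 4 stood apart from the other females, with a chi-square per degree of freedom of 30.1 to 44.9 between libraries, against 7.22 to 11.1 among the other females and 2.82 to 12.1 among males. All 15 neuronal markers passed the low-count filter, but the libraries were not neurons alone. The summed level of 15 satellite glia and Schwann cell markers was 11869 to 15069 CPM in females and 5500 to 11407 CPM in males, with no overlap. The 16 macrophage markers summed to 17.7 to 40.6 CPM in females and 7.91 to 16.5 CPM in males, also with no overlap. The highest female means in that list were H2-Ab1 at 7.49, H2-Eb1 at 6.89 and Cd74 at 5.00 CPM, while Aif1, Mrc1 and C1qb had higher means in males. Fibroblast markers summed to 80.0 to 128 CPM in females and 41.5 to 71.8 CPM in males, again with no overlap. Between 0 and 6 of these 16 macrophage markers had no read in a given library, with Ptprc, the leukocyte marker CD45, read in female replicate 2 only. At an unadjusted p-value under 0.05 (the edgeR test described with the sex comparison), higher levels in females were found for 5 of 14 tested glial markers and 4 of 5 fibroblast markers, where 4.44% of all tested genes were higher in females. Higher levels in males were found for 1 of 4 endothelial and mural markers, against 2.67% of all tested genes. In libraries made from many cells, fewer cells of a type and less RNA per cell cannot be told apart.

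Levels were first compared between genes per kilobase (kb) of exon. Il34, Casp1 and Il18 stood highest. Il34 reached 10.6 ± 2.45 CPM per kb (SD, n = 8), Casp1 9.62 ± 3.73 and Il18 6.27 ± 1.46. Il34 lay above Casp1 in 5 of 8 libraries, so these neighbours did not separate, whereas Casp1 lay above Il18 in 8 of 8. Ccl2 followed with 3.52 ± 2.20 CPM per kb (SD, n = 8), Cx3cl1 with 2.47 ± 0.744 and Tgfb2 with 2.07 ± 0.684. These neighbours overlapped as well, since Il18 exceeded Ccl2 in 6, Ccl2 exceeded Cx3cl1 in 5 and Cx3cl1 exceeded Tgfb2 in 5 of 8 libraries.

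The other 4 genes formed a lower tier, and Tgfb2 lay above Cxcl12, the highest of them by mean, in 8 of 8 libraries. Cxcl12 was at 0.333 ± 0.485 CPM per kb (SD, n = 8) and Il33 at 0.264 ± 0.111, but Cxcl12 lay above Il33 in only 3 of 8 libraries. Without female replicate 4 the mean of Cxcl12 was 0.162 CPM per kb and that of Il33 0.235. Il33 had 2 to 8 reads per library. Tgfb1, with 0.0557 CPM per kb on average, had 0 to 3 reads per library and no read in 4 of 8. Cxcl14 had 0 to 2 reads, also with no read in 4 of 8. The libraries therefore gave next to no sign of Tgfb1 and Cxcl14 in the sorted cells at this depth, and no fold change is given for them. None of these 4 genes passed the filter, and 6 of 10 did.

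**Figure D1:**
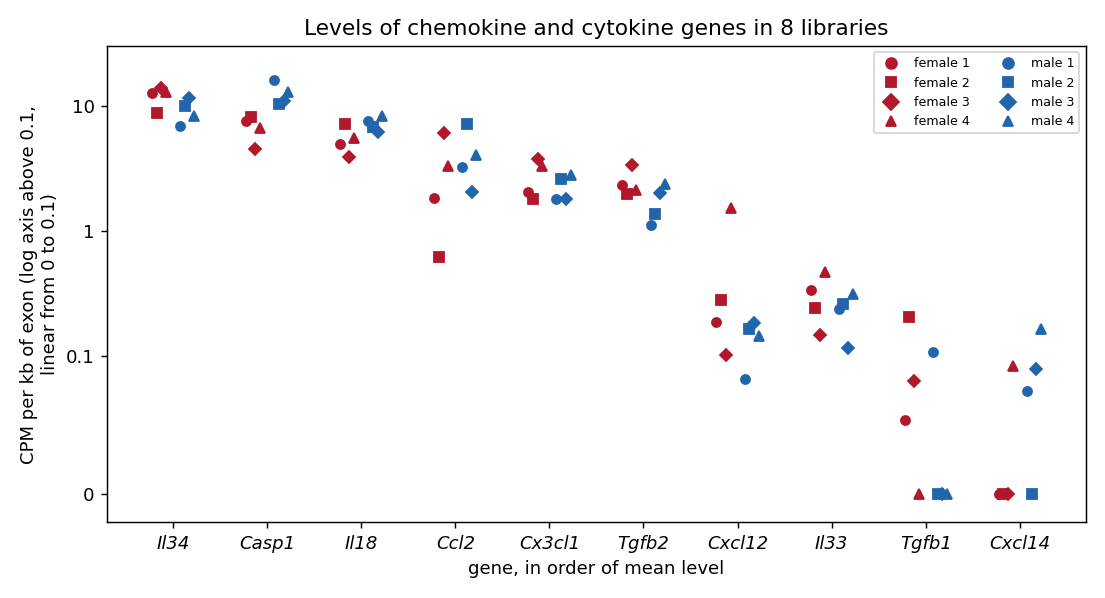
Level of each of the 10 genes in CPM per kb of exon (log axis above 0.1, linear below), ordered by mean; each point is 1 library, red for females and blue for males, with a shape for the replicate number. Il34, Casp1 and Il18 lie at the top, and Tgfb1 and Cxcl14 have libraries at 0 on the right.

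The pair of TGF-beta genes shows how far relatives can differ in level. Tgfb2 (1: 188447065 to 188529871, minus strand, build mm9) gave between 39 and 82 reads per library, and Tgfb1 (7: 26472021 to 26490096, plus strand) had 7 reads in all 8 libraries together. The third gene of the family, Tgfb3, was higher than both, with 9.76 ± 1.20 CPM per kb (SD, n = 8) and a lowest library of 7.27, above the highest library of Tgfb2 at 3.36. Tgfb3, Tgfb2 and Tgfb1 thus did not overlap in level. The sequence before the gene start is printed for both listed TGF-beta genes because they are relatives of very unequal level. It is also printed for Casp1, which differed most between sexes among the 6 tested listed genes. RefSeq gives these as the 250 bases before the start on build GRCm38.p6, and capitals mark matches to TATAAA, the TATA box, or GGGCGG, the GC box, on either strand. The windows are chr1:186705990-186706239 (minus strand) for Tgfb2, chr7:25686752-25687001 (plus) for Tgfb1 and chr9:5298267-5298516 (plus) for Casp1.
Tgfb2: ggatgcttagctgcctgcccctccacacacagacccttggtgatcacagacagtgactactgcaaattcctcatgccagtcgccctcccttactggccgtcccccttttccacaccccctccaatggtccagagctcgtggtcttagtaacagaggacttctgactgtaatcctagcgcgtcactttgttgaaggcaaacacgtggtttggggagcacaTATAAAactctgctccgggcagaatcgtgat
Tgfb1: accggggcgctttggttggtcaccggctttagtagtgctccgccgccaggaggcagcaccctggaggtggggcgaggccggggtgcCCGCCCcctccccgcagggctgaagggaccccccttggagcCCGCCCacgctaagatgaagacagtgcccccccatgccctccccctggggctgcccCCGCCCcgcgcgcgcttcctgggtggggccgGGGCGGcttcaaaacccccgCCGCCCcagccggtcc
Casp1: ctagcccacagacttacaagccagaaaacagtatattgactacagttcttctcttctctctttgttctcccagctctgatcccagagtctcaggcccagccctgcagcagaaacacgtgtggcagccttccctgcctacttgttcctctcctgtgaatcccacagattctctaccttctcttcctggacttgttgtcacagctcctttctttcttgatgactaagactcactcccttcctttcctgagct

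The Tgfb2 window held 1 TATAAA and no GGGCGG, and the Tgfb1 window held 5 matches to GGGCGG and no TATAAA. Of 32851 promoter windows of this length, 12.4% held TATAAA and 32.7% held GGGCGG. The Casp1 window held neither. No window of the listed genes held TGANTCA, the AP-1 motif, which is in 6.75% of all windows. G and C made up 53.6% of the Tgfb2 window, 75.2% of the Tgfb1 window and 49.2% of the Casp1 window. These matches describe the letters only. Windows were found for 8 of the 10 genes, and Ccl2 and Il34 were not among them.

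Females were then compared with males. No listed gene passed after adjustment over all tested genes with edgeR, where 0.0879% of the 12518 tested genes did. With DESeq2 1 listed gene passed, Casp1, where 0.383% of all tested genes did, and with limma-voom none. At an unadjusted edgeR p-value under 0.05, 1 of the 6 tested genes was called, where 7.11% of all tested genes were. It was higher in males (background 2.67%) and none was higher in females (background 4.44%). Female and male libraries were fully apart for 1 of the 6, against 5.52% of all tested genes. The median log2 fold change of the 6 was -0.10, against 0.003 for all tested genes, with 3 estimates above and 3 below 0.

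Casp1 (9: 5298517 to 5307265, plus strand, build mm9), which encodes the protease that cuts the precursors of interleukin 1 beta and interleukin 18, differed most among the 6 tested listed genes. Its level was 11.3, 12.1, 6.67 and 9.94 CPM in female replicates 1 to 4 and 24.1, 15.4, 16.3 and 19.2 CPM in the males. All 4 male libraries lay above all 4 female libraries, a pattern that 2.52% of tested genes showed in this direction. Behind these levels stood 32 to 82 reads in a female library and 99 to 177 in a male one. Females averaged 10.01 ± 2.40 CPM and males 18.8 ± 3.92 CPM (mean ± SD, n = 4 each). On the log2 scale the difference, female over male, was -0.92 ± 0.22 (SE; 95% interval -1.41 to -0.44), with an unadjusted edgeR p-value of 0.00154 and an adjusted p-value of 0.427. The adjusted p-value was 0.0369 with DESeq2 and ranged from that value to 1 over all alternatives. Without female replicate 4 the Casp1 difference was -0.91 in log2, with an unadjusted edgeR p-value of 0.00270.

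The level of non-neuronal markers differed between the same libraries. The library with the most Casp1, male replicate 1, had the least glial marker RNA, 5500 CPM, and the 2 libraries with the least Casp1, female replicates 3 and 4, had 12032 and 15069 CPM. With the glial score added as a covariate the log2 fold change of Casp1 was -0.59, with an unadjusted edgeR p-value of 0.0393 and an adjusted p-value of 1. Casp1 is also known from macrophages, and of the 16 macrophage markers 5 were tested. Lyz2 and the antigen presentation genes Cd74, H2-Ab1 and H2-Eb1 were higher in females at an unadjusted edgeR p-value under 0.05. That was 4 of 5, against 4.44% of all tested genes. The sexes overlapped for Lyz2 and H2-Ab1, and the highest library for Lyz2, with 54 reads, was female replicate 4. C1qb had a log2 fold change of -0.14 ± 0.46 (SE). Of the 11 with too few reads to test, 9 had a higher mean CPM in females and 2, Aif1 and Mrc1, in males. Nefh, the heavy neurofilament of large myelinated neurons, was at 527 to 1663 CPM in females and 280 to 625 CPM in males, opposite to Casp1 in direction. It was the 1 neuronal marker of 15 called at the unadjusted level, and the list as a whole had 9 estimates above and 6 below 0, with a median log2 fold change of 0.03. Summed glial markers did not overlap between the sexes, so the covariate cannot fully separate glial level from sex. The part of any of these markers in the Casp1 difference was not tested.

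The profile of Casp1 over the 8 libraries was nearest to that of Arxes2, Gm6578 and Stk32a, the 3 tested genes with the smallest root mean square distance on the centred log2(CPM + 1) scale. The distance was 0.116 for Arxes2, 0.170 for Gm6578 and 0.171 for Stk32a, where Casp1 itself spread by 0.506 around its mean. Arxes2 was at 44.8 to 62.1 CPM in females and 83.8 to 122 CPM in males, without overlap, as 2.52% of tested genes were in this direction. It was picked for its likeness to Casp1 in these same libraries, so its split by sex is no separate result. Arxes2 belongs to a family with near-identical copies, so its level is uncertain.

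Il18 (9: 50383378 to 50389942, plus strand, build mm9), a substrate of caspase 1, was at 3.44, 5.03, 2.71 and 3.87 CPM in the female libraries and 5.32, 4.75, 4.29 and 5.77 CPM in the male libraries. Female replicate 2 lay above 2 of the males, so the sexes overlapped. Females averaged 3.76 ± 0.973 CPM and males 5.03 ± 0.645 CPM (mean ± SD, n = 4 each). The difference in log2 was -0.44 ± 0.24 (SE; 95% interval -0.97 to 0.10), with an unadjusted edgeR p-value of 0.102. The estimate had the same sign as that of Casp1. The unadjusted p-value was 0.0371 without female replicate 2, the one library whose removal took it under 0.05.

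Il18bp, a secreted decoy that binds interleukin 18, was higher in females at the unadjusted level. It had 1.65, 6.42, 5.42 and 1.18 CPM in the female libraries and 1.64, 0.891, 1.98 and 1.18 CPM in the male libraries. Female replicates 2 and 3 carried the difference, and the other two females lay within the male range. Its difference in log2 was 1.31 ± 0.55 (SE), with an unadjusted edgeR p-value of 0.0383 and an adjusted p-value of 0.696. Without female replicate 2 the log2 fold change was 0.87 and the unadjusted p-value 0.156, and the p-value also exceeded 0.05 without female replicate 3 or male replicate 1, 2 or 4. It was 0.136 with limma-voom and 0.183 with the glial covariate.

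The chains of the interleukin 18 receptor were nearly unseen, with 0 to 2 reads of Il18r1 and 0 reads of Il18rap in all libraries. Inflammasome sensors that switch on caspase 1 were at the same low level. Nlrp1a, Nlrp1b and Nlrc4 had 0 reads in all libraries, Nlrp3 and Aim2 had at most 1, and the adaptor Pycard had 2 to 11. Gsdmd, the pore-forming target of caspase 1, had 0 to 6 reads. Casp1 was thus measured at 99 to 177 reads in males beside partner genes at or near the floor.

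**Figure D2:**
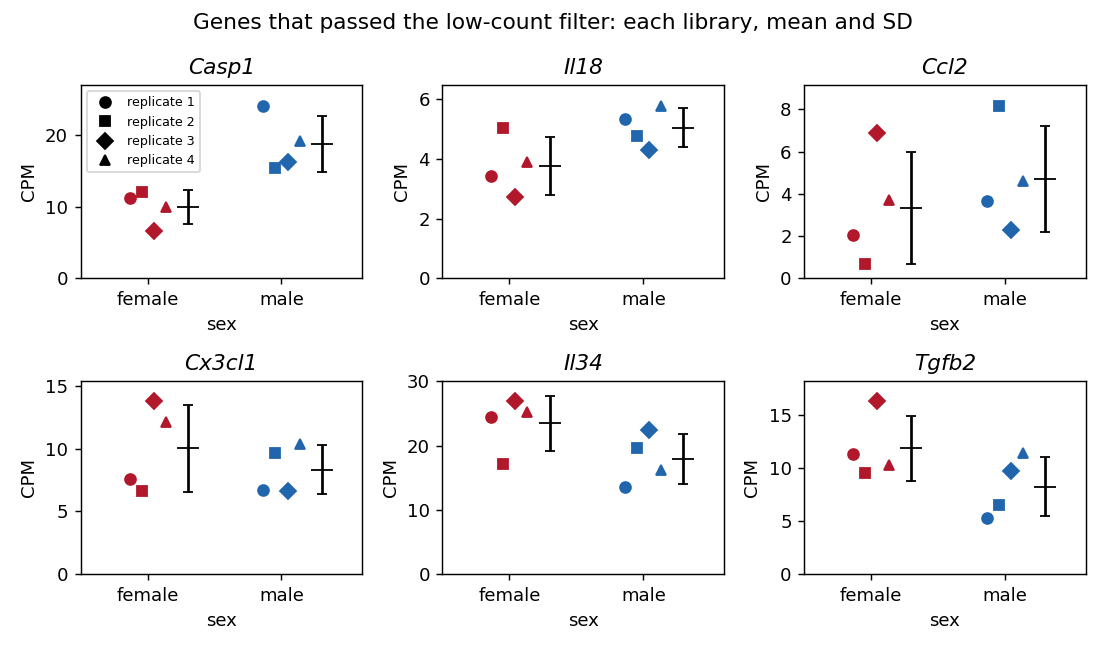
Level in CPM of the 6 genes that passed the low-count filter, 1 point per library with a shape for each replicate number, and the mean ± SD of each sex (n = 4) in black. The sexes separate for Casp1 and overlap for the other 5.

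Ccl2 (11: 81849073 to 81850955, plus strand, build mm9), which draws monocytes through the receptor CCR2, varied most among the 6 tested listed genes, with a highest library 11.8 times the lowest. Its level was 2.06, 0.694, 6.88 and 3.71 CPM in the female libraries and 3.68, 8.17, 2.31 and 4.59 CPM in the male libraries. Female replicate 2, at 4 reads, was the lowest and male replicate 2, at 55 reads, the highest. The sexes overlapped in part, with female replicates 1 and 2 below all males and male replicate 2 above all females. In log2 the sexes differed by -0.55 ± 0.56 (SE; 95% interval -1.79 to 0.68), with an unadjusted edgeR p-value of 0.345. It was -1.15 without female replicate 3 and -0.14 without male replicate 2.

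Immediate early genes, which cells switch on within minutes of a stimulus such as tissue dissociation, are given beside Ccl2. Their summed level over 11 genes was 616, 443, 1214 and 1289 CPM in the females and 699.6, 1067, 709 and 644 CPM in the males. Female replicate 2 was lowest in both measures, and male replicate 2 and female replicate 3, the 2 libraries with the most Ccl2, were among the 3 highest. The measures did not run together throughout: female replicate 4 had the highest immediate early sum and a middle level of Ccl2, and male replicate 4 had the third highest Ccl2 with a sum below that of the other males. The tested genes nearest to Ccl2 in profile were Socs3, a feedback inhibitor of cytokine signalling, at a distance of 0.275, Csrnp1 at 0.331 and Zfp36, an RNA-binding protein that shortens the life of cytokine messages, at 0.375. Zfp36 is also 1 of the 11 immediate early genes. Ccl2 itself spread by 0.733 around its mean. Socs3 was at 22.7 to 100.4 CPM in females and 43.5 to 98.0 CPM in males. The part of the immediate early response in the level of Ccl2 was not tested.

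Ccl7, the neighbouring monocyte chemokine, was singled out after its values were seen. It had 2, 1, 9 and 4 reads in the female libraries and 7, 13, 1 and 2 reads in the male libraries, too few for the filter. The highest library was male replicate 2, as for Ccl2. The receptor Ccr2 had 0 to 3 reads, while Darc, an atypical receptor that binds Ccl2 without a signal, had 229 to 361 reads and averaged 53.8 ± 8.88 CPM in females against 45.5 ± 6.64 CPM in males (mean ± SD, n = 4 each). Another scavenging receptor, Ccbp2, had 0 to 4 reads.

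**Figure D3:**
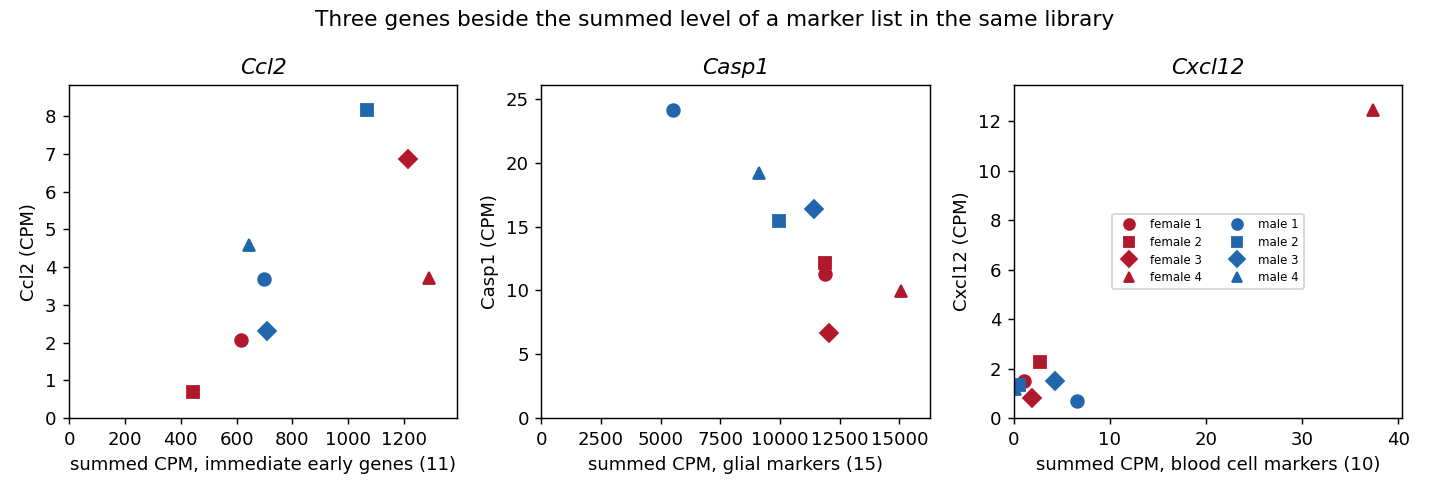
Level in CPM of Ccl2, Casp1 and Cxcl12 on the vertical axes against the summed CPM of 11 immediate early genes, 15 glial markers and 10 blood cell markers in the same library; red points are females, blue points males, and shapes give the replicate number. The highest Casp1 stands at the lowest glial sum of 5500 CPM, and female replicate 4 stands alone for Cxcl12. In that library S100a8 and S100a9 gave 145 and 74 of the 222 blood cell marker reads.

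Cx3cl1 (8: 97295909 to 97306323, plus strand, build mm9), the membrane-bound chemokine of neurons, was at 7.56, 6.59, 13.8 and 12.1 CPM in the female libraries and 6.69, 9.66, 6.61 and 10.4 CPM in the male libraries. Female replicates 3 and 4 were highest, and the other females lay within or just below the male range. For Cx3cl1 the log2 fold change came to 0.24 ± 0.27 (SE; 95% interval -0.37 to 0.84), with an unadjusted edgeR p-value of 0.406. It was 0.04 without female replicate 3 and 0.02 with the glial covariate. The proteases that release the ligand were well read, with Adam10 at 11.3 ± 2.39 CPM per kb and Adam17 at 2.35 ± 0.649 CPM per kb (SD, n = 8). Neither passed at the unadjusted level, with log2 fold changes of -0.34 ± 0.20 and -0.05 ± 0.29 (SE). The receptor of microglia and macrophages, Cx3cr1, had 0 to 7 reads per library.

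Cxcl12 (6: 117118553 to 117131385, plus strand, build mm9), a chemokine of stromal cells, was carried by 1 library. It had 11, 13, 4 and 74 reads in the female libraries and 5, 9, 9 and 8 reads in the males, that is 1.51, 2.26, 0.833 and 12.5 CPM against 0.682, 1.34, 1.49 and 1.18 CPM. Female replicate 4 stood apart, and the other females overlapped the males. Where a looser filter of at least 1 CPM in 4 libraries kept the gene, the log2 difference came to 1.84 ± 0.76 (SE), at an unadjusted edgeR p-value of 0.0353. Without female replicate 4 the low-count filter of the main test kept the gene. That fit gave a log2 difference of 0.40 ± 0.44 (SE) with an unadjusted edgeR p-value of 0.379.

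Some genes of non-neuronal cells, chosen after their values were seen, stood out in that same library. Col1a1, a fibroblast collagen, had 194 reads in female replicate 4 and 0 to 18 in the other libraries, and Cldn5, an endothelial junction gene, had 55 against 0 to 12. Other genes of the same lists did not follow, since Col3a1, with 22 reads, and Pdgfrb, with 42, had their lowest female level there. The 10 fibroblast markers summed to 128 CPM in that library against 41.5 to 102 CPM elsewhere, and the 11 endothelial and mural markers to 127 CPM against 110.2 to 151 CPM. S100a8, a neutrophil gene, had 145 reads against 0 to 26. The summed level of the 10 blood cell markers was 37.4 CPM there and 0.15 to 6.55 CPM elsewhere. Of the 222 reads summed there, S100a8 gave 145 and S100a9 gave 74, so the other blood cell markers gave next to none. The haemoglobin genes had 0 reads in all libraries. Reads shared by such similar gene pairs can go uncounted, so this does not show absence. The part of these cells in the level of Cxcl12 was not tested.

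Among the receptors of Cxcl12, the atypical receptor Cxcr7 was higher in females at the unadjusted level. Cxcr7 removes the chemokine rather than passing on its signal. It was at 8.80, 7.81, 8.33 and 9.27 CPM in the females and 3.41, 8.47, 4.29 and 3.85 CPM in the males. Male replicate 2 lay within the female range and the other males below it. Female over male, the log2 difference came to 0.75 ± 0.28 (SE), at an unadjusted edgeR p-value of 0.0221 and an adjusted p-value of 0.651. With the glial score added as a covariate it was 0.43, with an unadjusted edgeR p-value of 0.253, and the p-value also exceeded 0.05 without male replicate 1, 3 or 4, at most 0.0623. Cxcr4, the signalling receptor, had 6 to 21 reads in both sexes and a log2 fold change of 0.20 ± 0.44 (SE).

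Il34 (8: 113265729 to 113329824, minus strand, build mm9) was at 24.5, 17.2, 26.9 and 25.3 CPM in the female libraries and 13.5, 19.6, 22.5 and 16.3 CPM in the male libraries. The means of 23.4 ± 4.30 and 18.0 ± 3.90 CPM (SD, n = 4 each) overlapped through female replicate 2. The log2 difference came to 0.37 ± 0.20 (SE; 95% interval -0.07 to 0.81), with an unadjusted edgeR p-value of 0.0939. With the glial covariate it was 0.10. The unadjusted p-value was 0.0312 without female replicate 2 and 0.0417 without male replicate 3. Il34 shares 22 and 75 exon bases with the antisense transcripts Gm15894 and Gm15895 in the annotation, and the strand option of the counting was not given, so a small part of its reads may be theirs.

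The partners of Il34 differed in level by far. Csf1r, the macrophage receptor, had 0 to 9 reads per library, while Ptprz1 and Sdc1, a phosphatase and a proteoglycan that also bind the ligand, were at 9.83 ± 3.62 and 12.5 ± 3.31 CPM per kb (SD, n = 8). Sdc1 was higher in males at the unadjusted level, with 38.1, 38.2, 33.8 and 46.7 CPM in the females and 71.9, 59.4, 44.6 and 49.7 CPM in the males. Only male replicate 3 fell within the female range. Sdc1 differed in log2 by -0.55 ± 0.17 (SE), with an unadjusted edgeR p-value of 0.00838 and an adjusted p-value of 0.637. With the glial covariate it was -0.26, with an unadjusted edgeR p-value of 0.209. Csf1, the other ligand of this receptor, was at 11.2 CPM on average and had a log2 fold change of 0.21 ± 0.27 (SE).

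Tgfb2 was at 11.3, 9.54, 16.2 and 10.3 CPM in the female libraries and 5.32, 6.54, 9.74 and 11.4 CPM in the male libraries. Female replicate 3 was highest and male replicate 1 lowest, and male replicates 3 and 4 lay within the female range. The female to male difference came to 0.50 ± 0.27 in log2 (SE; 95% interval -0.10 to 1.10), with an unadjusted edgeR p-value of 0.0926. It was 0.70 with an unadjusted p-value of 0.0329 without male replicate 4, and 0.13 with the glial covariate. The nearest profile was that of Nell2, a secreted neuronal glycoprotein, at a distance of 0.0972, where Tgfb2 spread by 0.418, followed by Sipa1 at 0.154 and Slc25a15 at 0.156. Nell2 was at 10.8 to 14.4 CPM in females and 5.46 to 12.7 CPM in males.

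Il33 (19: 29999604 to 30035194, plus strand, build mm9), the alarm signal of the interleukin 1 family, had 7, 4, 2 and 8 reads in the female libraries and 5, 5, 2 and 6 reads in the males. The sexes overlapped in part, and a difference was not detectable at this depth. Cxcl14 (13: 56390008 to 56397912, minus strand), a chemokine of epithelia, had 0, 0, 0 and 1 reads in females and 1, 0, 1 and 2 in males. Tgfb1 had 1, 3, 1 and 0 reads in females and 2, 0, 0 and 0 in males.

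Genes that hold, open or receive TGF-beta were mostly measured. Ltbp4, a matrix protein that anchors the latent complex, was higher in females at the unadjusted level, at 10.6 ± 2.47 CPM against 6.66 ± 2.26 CPM in males (SD, n = 4 each), with a log2 fold change of 0.65 ± 0.28 (SE). Its unadjusted edgeR p-value was 0.0427 and its adjusted p-value 0.696, and the log2 fold change was 0.11 with the glial covariate. The unadjusted p-value also exceeded 0.05 without female replicate 1, 2 or 3 or male replicate 1 or 2, at most 0.138. The receptors did not pass at the unadjusted level, with log2 fold changes of -0.62 ± 0.34 for Tgfbr1, -0.06 ± 0.37 for Tgfbr2 and -0.22 ± 0.36 for Tgfbr3 (SE). Eng, an accessory receptor of blood vessels, ranged from 8 to 61 reads among females and from 6 to 15 among males (log2 difference 1.22 ± 0.58, SE, unadjusted edgeR p-value 0.0617). The 61 reads were in female replicate 4, and without it the log2 difference of Eng was 0.29 ± 0.40 (SE). Acvrl1 had 2 to 12 reads. Ltbp3, a further anchor of the latent complex, had a log2 fold change of 0.11 ± 0.17 (SE). Itgav and Itgb8, the integrin chains that open the complex, had log2 fold changes of 0.12 ± 0.44 and 0.43 ± 0.37 (SE).

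**Figure D4:**
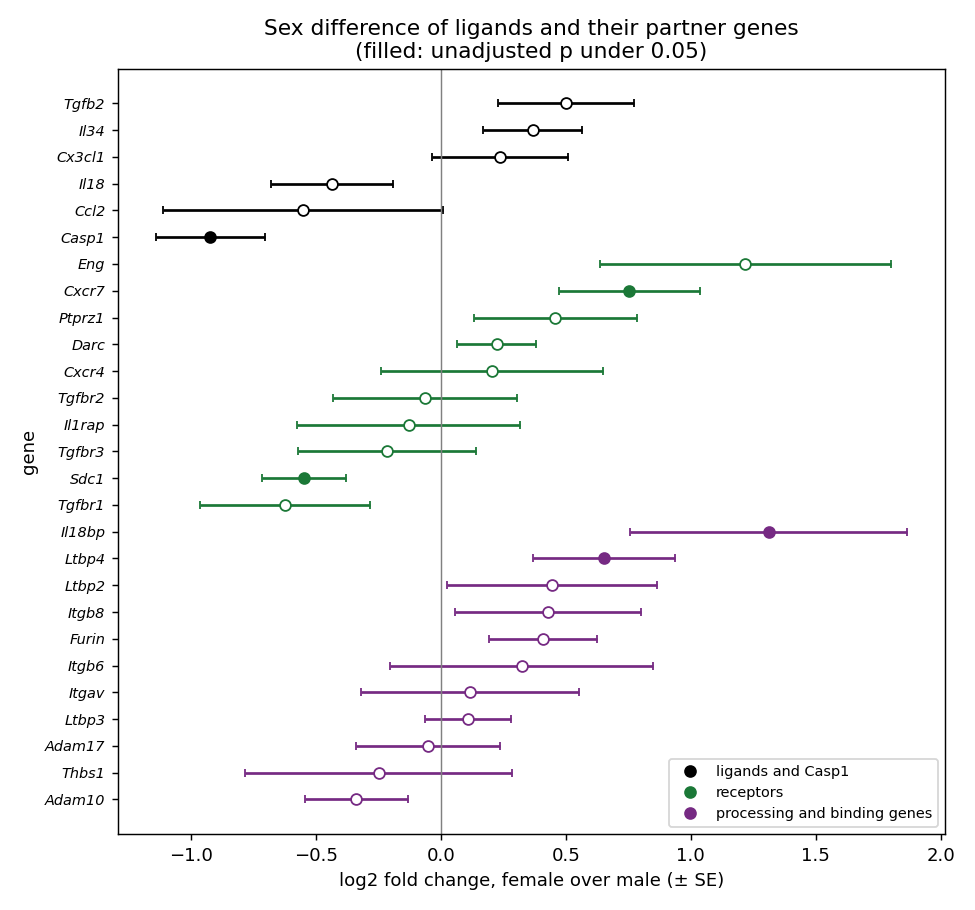
Log2 fold change, female over male, with SE, for the 6 tested genes (black), 10 tested receptors (green) and 11 tested processing and binding genes (purple); filled points had an unadjusted p-value under 0.05. Casp1 and Sdc1 lie on the male side, and Cxcr7, Il18bp and Ltbp4 on the female side.

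Across the partner lists few genes were called. Of 18 receptors 10 were tested, with 1 higher in females and 1 higher in males at an unadjusted edgeR p-value under 0.05, where 4.44% and 2.67% of all tested genes were. Of 22 processing and binding genes 11 were tested, with 2 higher in females (background 4.44%) and none in males (background 2.67%). Of 13 signalling genes 10 were tested and none was called; Myd88, the adaptor of interleukin 18 and 33 receptors, had the smallest unadjusted edgeR p-value of these, 0.0704, with a log2 fold change of -0.36 ± 0.18 (SE). The most abundant of them were Rela, an NF-kappaB subunit, Smad2, which carries the TGF-beta signal, and Traf6, with log2 fold changes of 0.18 ± 0.13, -0.09 ± 0.15 and -0.38 ± 0.27 (SE). No partner passed after adjustment with edgeR, nor with DESeq2 or limma-voom. The medians of the log2 fold changes were 0.07 for receptors, 0.32 for processing and binding genes and -0.11 for signalling genes, against 0.003 for all tested genes.

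Most other chemokine and cytokine ligands had few or no reads. Of 58 further ligands 8 were tested, 33 had at most 3 reads in every library and 12 of those had no read at all. One of the 12, Cntf, shares 847 exon bases with Zfp91 on the same strand, where reads can go uncounted as ambiguous. None of the 8 was called at an unadjusted edgeR p-value under 0.05, where 7.11% of all tested genes were, with a median log2 fold change of -0.06. Mif was the most abundant at 106 ± 14.2 CPM per kb (SD, n = 8), and Mif and Tgfb3 had log2 fold changes of 0.11 ± 0.13 and -0.19 ± 0.15 (SE). The interleukin 33 receptor chain Il1rl1 had 0 to 3 reads, and Il1rap, the chain it shares with other interleukin 1 family receptors, was at 4.06 CPM on average.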

How the data were processed

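The deposited values are raw read counts per gene symbol, 1 table per library. According to the labels and the methods of the study, the authors aligned single reads to mouse build mm9 with TopHat2 and made the counts with HTSeq, with no normalization. Neither tool versions nor annotation release nor strand option were given in the sources used here. Summary lines of the counting program were left out. Reads outside any feature made up 57.8% to 60.5% of the reads given to a gene, to no feature or to several genes.

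Counts per 1000000 gene reads (CPM) were divided by merged exon length (GENCODE M1, NCBIM37, the assembly also called mm9) where genes were compared. Sexes were compared over all genes by edgeR 4.0.16 in R 4.3.3 (quasi-likelihood test), TMM factors, the default filter and Benjamini-Hochberg adjustment, with sex alone in the model. The procedure was tested on simulated data. By the study's methods a sample held the traced lumbar ganglia of both sides, the set that 1 mouse gives, with 4 samples in each sex. The genes and lists were chosen with earlier results of these data known. Genes were named by rule: all 10, the receptors, partners with an unadjusted p-value under 0.05 or among the 3 most abundant of a list, and the 3 nearest profiles of each tested gene spanning over 1 unit of log2(CPM + 1). Marker and inflammasome genes, Adam17, Itgav, Myd88, Il6, Ccl7, Cxcl10, Pf4, Ppbp and Cntf fall outside it and were chosen after their values were seen. Gsdmd was listed under an older symbol. Alternatives used DESeq2 1.42.0, limma-voom (limma 3.58.1), other scalings and filters, the glial score as a covariate, the replicate number as a block, and each library left out. Since summed glial markers did not overlap between the sexes, no fit with the glial score can fully separate glial level from sex.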

Additional observations from a re-analysis of the deposited data

Results flagged for a closer look

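Of 38 groups of 4 libraries, 2 had a library whose gap to the nearest exceeded the 95% critical value of Dixon's ratio, where chance gives about 5% of groups. On the log2(CPM + 1) scale the summed glial markers were 13.88 in female replicate 4, against 13.54 to 13.55 in the other females. The summed macrophage markers were 3.16 in male replicate 1, against 3.97 to 4.13 in the other males; this is also the library with the most Casp1.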

How the results depend on the processing

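The 6 tested genes kept the sign of their log2 fold change in all 16 alternatives. Casp1 ranged from -1.03 to -0.59, with an unadjusted p-value of at most 0.0393. After adjustment, the number of listed genes that passed went from 0 to 1 with DESeq2. The listed genes higher in females at the unadjusted level went from 0 to 1 without a low-count filter and to 1 with at least 1 CPM in 4 libraries, which is Cxcl12 in both. Leaving out 1 library at a time gave 0 to 2 listed genes higher in females and 1 to 2 higher in males, and 0 to 5 partners higher in females and 1 to 2 higher in males. Partners higher in females, 3 at first, were 8 without a filter and 0 with the glial covariate. Over all genes, the 11 that passed after adjustment became 48 with DESeq2, 5 with the glial covariate and 7 to 84 without 1 library, the highest without female replicate 1. The 556 genes higher in females at the unadjusted level became 157 and the 334 higher in males 146 with the glial covariate, and the latter ran from 188 to 728 without 1 library, the highest without female replicate 4. The cause was not tested. With the replicate number as a block, 6 genes passed after adjustment and no listed gene changed its call, while the partner Il18bp had a log2 fold change of 1.14 and an unadjusted p-value of 0.0576. The numbers are no pairing by design, since same-numbered libraries correlated in their deviations at 0.094, -0.109, 0.144 and 0.005, and not every library correlated best with its own number. Level order kept 7 to 9 of 9 neighbouring pairs without 1 library. Depth limits Cxcl12, Cxcl14, Il33 and Tgfb1, which had too few reads for the filter.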

Other observations

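Some further ligands varied widely among libraries of one sex; they were singled out after their values were seen. Cxcl10, an interferon-induced chemokine, had 23, 105, 31 and 44 reads in the females and 12, 213, 38 and 28 reads in the males, with the second replicate highest in each sex. Il6 had 0, 1, 4 and 4 reads in the females and 5, 8, 1 and 3 reads in the males. The platelet chemokines Pf4 and Ppbp had 11 and 19 reads in female replicate 4, the library with the most Cxcl12, and 0 and at most 3 reads in the other libraries.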
